A study of Mus musculus with 8 samples.

Results

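The genes described here were 46 cyclins, cyclin-dependent kinases (CDKs), CDK inhibitors, pocket proteins and E2F transcription factors, together with the late cell cycle regulators Foxm1, Mybl2 and Cdkn3, of 18193 genes measured in mouse lung after surgery. A gene entered when its symbol was on a written list of the family and was the only symbol of a probe set, and the brightest of its probe sets, by mean level on the 8 arrays, stood for it. All 46 genes were measured. For 33 of them more than 1 probe set was on the array, 109 probe sets in all. The mean level of 40 genes lay above 5.92, the median log2 level of all probe sets, where 66.8% of all genes did. The 6 genes that did not were Cdkn3, Mybl2, E2f7, E2f8, Ccne2 and Cdkn2a.

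In the PNY group the left lung was removed (left unilateral pneumonectomy), and the SHAM group received a sham thoracotomy, in which the chest was opened and closed with both lungs in place. All mice were adult C57BL/6 females of 10 to 12 weeks and had the same anaesthesia, ventilation, ampicillin and buprenorphine, and no unoperated mice were among the samples. Lungs were collected at 6 hours and at 1, 3 and 7 days, with 1 Affymetrix array for each surgery and time point. Each array held tissue pooled from 8 mice, so that no value here measures the spread between mice. The values are log2 expression levels, a difference is PNY minus SHAM on that scale, and 4 arrays in PNY and 4 in SHAM limit the precision of every mean.

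Cyclins are the regulatory subunits that switch on the CDKs. D cyclins with Cdk4 and Cdk6, followed by E cyclins with Cdk2, phosphorylate the pocket proteins (Rb1, Rbl1 and Rbl2) and free the E2F factors that transcribe S phase genes, while the INK4 (Cdkn2) and CIP/KIP (Cdkn1) inhibitors hold these kinases back. A and B cyclins with Cdk1 then carry the cell through G2 phase into mitosis, and their genes are transcribed late in the cycle through the MuvB complex with Mybl2 and Foxm1. Few cells of the resting adult lung divide, and after pneumonectomy the remaining lobes grow by cell division. In whole lung RNA, more dividing cells and more transcript per cell cannot be told apart.

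The lung markers, among them Sftpc (surfactant protein C) and Pecam1 (an endothelial adhesion molecule), were above the median level for 10 of 10 genes, and none of them passed the rank product test. On the PNY array of 1 day the thymocyte markers stood apart. Their summed linear level was 3767 there, 805 to 1001 on the other PNY arrays and 939 to 1201 on the SHAM arrays. Results that this array could touch are given below also without it.

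Of the 46 genes, 5 rose in PNY lungs and none fell by rank products over the 16 PNY and SHAM array pairs (permutation P under 0.001, and at least 1.5-fold between the surgeries). Rank products multiply the ranks a gene has in each pair, and their P is not adjusted for the number of probe sets. This P compares the ranks with those of values shuffled within each array, so it does not measure the spread between pools. Among all genes 0.506% rose and 0.0605% fell by the same rule. The genes that rose were Cdk1, the kinase of mitotic entry, Ccna2 (cyclin A2) and Ccnb2 (cyclin B2), which activate it, Cdkn3, a phosphatase that removes an activating phosphate from CDKs, and Ccne2 (cyclin E2), a partner of Cdk2 at the start of S phase. The 4 largest mean differences were all in the mitotic group of 7 genes, where 4 rose and 3 did not pass.

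At 6 hours, 1, 3 and 7 days, Cdk1 had 7.33, 7.41, 8.51 and 9.38 in PNY lungs against 7.02, 7.11, 7.30 and 7.52 in SHAM lungs. The mean difference was 0.92 ± 0.76 (SD over the 4 time points), a fold change of 1.89, with a permutation P of 2.41e-05. In both early pairs PNY lay 0.30 to 0.31 above SHAM, and the PNY arrays of 3 and 7 days lay above every SHAM array. Ccna2 had 7.39, 7.56, 8.45 and 9.33 in PNY lungs against 7.21, 7.26, 7.40 and 7.59 in SHAM lungs, in the same order of times, with a mean difference of 0.82 ± 0.73 (permutation P = 8.79e-05). A second Ccna2 probe set also rose, by 0.79 on average.

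Ccnb2 had 7.41, 6.93, 8.18 and 9.12 in PNY lungs against 7.03, 6.43, 7.20 and 7.38 in SHAM lungs over the same times, with a mean difference of 0.90 ± 0.61 (permutation P = 1.85e-05). Its 6 hour PNY array, too, lay above all SHAM arrays, and the 1 day pair held its lowest level in either surgery. Cdkn3 had 4.93, 4.70, 5.98 and 6.84 in PNY lungs against 4.78, 4.31, 4.65 and 5.04 in SHAM lungs, a mean difference of 0.92 ± 0.77 (permutation P = 2.03e-05). The early PNY and SHAM levels of Cdkn3 overlapped, and those of 3 and 7 days did not.

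Ccnf, which encodes the F-box protein cyclin F, had 6.35, 6.34, 6.84 and 7.40 in PNY lungs against 6.37, 6.32, 5.88 and 6.32 in SHAM lungs. The early pairs differed by -0.02 and 0.02 and the late pairs by 0.96 and 1.08, and over all 4 pairs the gene did not pass (mean difference 0.51 ± 0.59, permutation P = 0.00203). The SHAM array of 3 days was low against the other SHAM arrays and enlarged the difference at 3 days. Foxm1, a forkhead factor of G2 and M phase genes, had a mean difference of 0.30 ± 0.43 at its brightest probe set, where the pairs differed by -0.14, 0.18, 0.27 and 0.88. A dimmer Foxm1 probe set passed the rank product test, with differences of 0.29, 0.24, 0.61 and 1.58 and a mean of 0.68, so the call for this gene depends on the probe set. Of all probe sets 0.315% rose and 0.0555% fell. Mybl2 (B-Myb), the MuvB partner at S phase, differed by 0.09 ± 0.22 on average and did not pass.

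**Figure D1:**
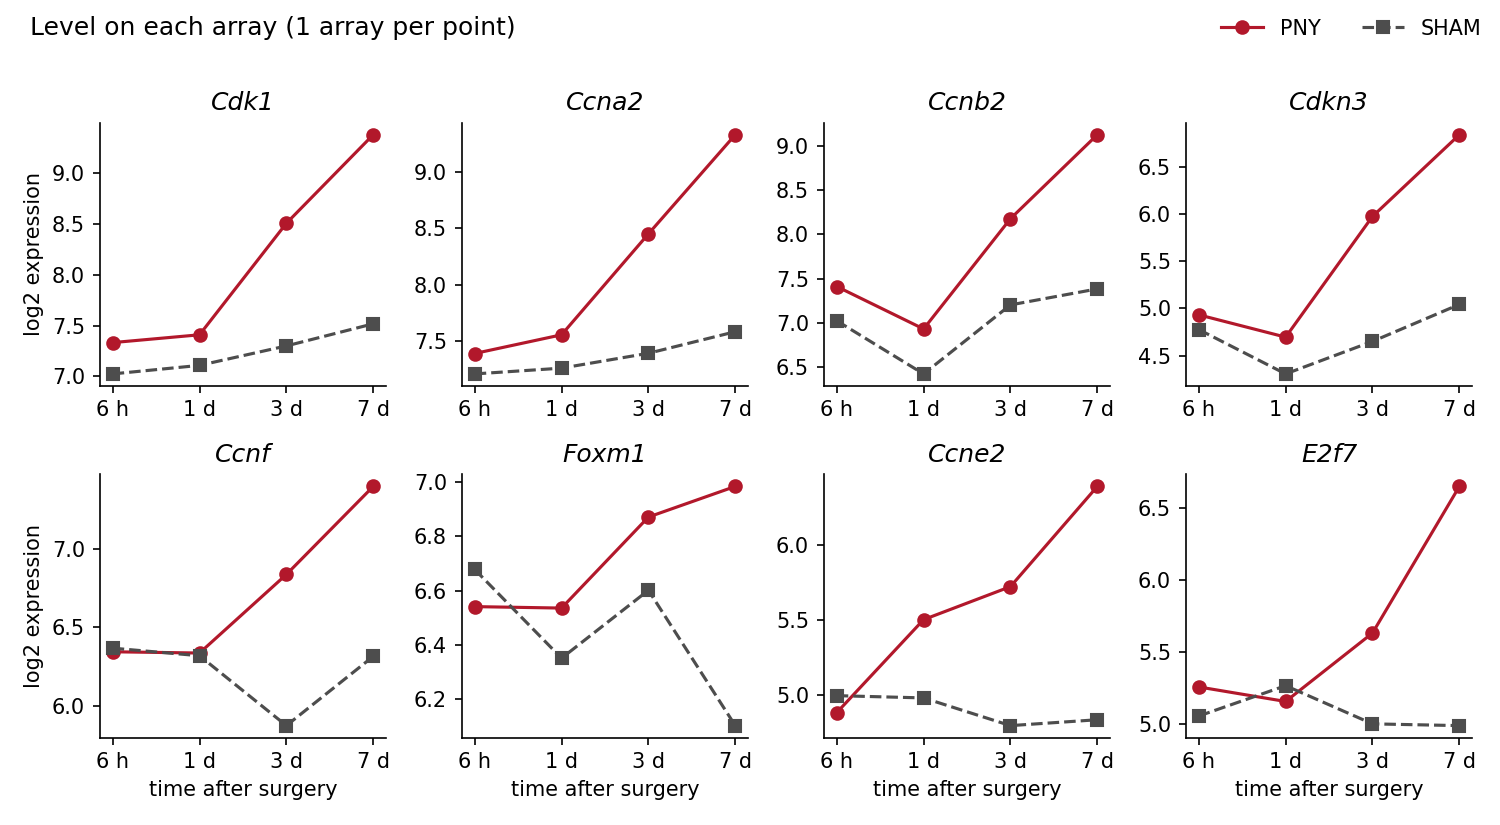
Log2 expression (y axis, scaled per gene) by time after surgery (x axis) for 6 mitotic genes, Ccne2 and E2f7. Each point is 1 array of 8 pooled mice, PNY as red circles and SHAM as grey squares; in all 8 genes the PNY arrays of 3 and 7 days lie above every SHAM array.

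The promoters of the mitotic genes were searched for the elements by which this class of genes is known to be controlled, since 4 of them rose together. The CHR (cell cycle genes homology region) was written as TTTGAA, the CCAAT box, bound by NF-Y, as CCAAT, and the E2F motif as TTCCCGC or as TTCGCGC or as TTGGCGC or as TTGCCGC, all on both strands. RefSeq sequences (GRCm38.p6) from 250 bases before to 50 after the gene start were found for 35 of the 46 genes, 41 promoters in all. An E2F motif of the form TTGGCGC can overlap a CCAAT box read on the other strand, as in E2f8. The stretches below run from 180 bases before to 20 after the start in the direction of the gene, and the capitals mark every match within them, on either strand. Cdk1, Ccnb2 and Cdkn3 are shown as mitotic genes that rose, and Ccnf as one whose early pairs were nearly equal.
Cdk1: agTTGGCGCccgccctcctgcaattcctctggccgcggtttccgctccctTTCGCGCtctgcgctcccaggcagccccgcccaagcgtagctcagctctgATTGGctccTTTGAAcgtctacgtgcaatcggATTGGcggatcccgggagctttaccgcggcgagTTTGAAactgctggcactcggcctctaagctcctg
Ccnb2: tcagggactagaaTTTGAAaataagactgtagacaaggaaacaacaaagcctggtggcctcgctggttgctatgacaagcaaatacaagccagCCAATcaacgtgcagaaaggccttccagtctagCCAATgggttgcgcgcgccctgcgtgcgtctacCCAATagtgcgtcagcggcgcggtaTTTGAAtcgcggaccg
Cdkn3: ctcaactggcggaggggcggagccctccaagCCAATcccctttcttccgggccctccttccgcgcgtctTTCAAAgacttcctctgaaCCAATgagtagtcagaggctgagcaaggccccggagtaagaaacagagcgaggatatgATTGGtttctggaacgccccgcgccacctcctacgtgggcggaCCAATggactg
Ccnf: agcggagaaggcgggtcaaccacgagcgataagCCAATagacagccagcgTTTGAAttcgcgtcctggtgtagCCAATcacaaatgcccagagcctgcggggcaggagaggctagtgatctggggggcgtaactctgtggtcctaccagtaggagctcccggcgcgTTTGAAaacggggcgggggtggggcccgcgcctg

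These stretches lie at chr10:69352893-69353092, chr9:70421535-70421734 and chr17:24251390-24251589 on the minus strand and at chr14:46760361-46760560 on the plus strand. Ccnb2 had 3 CCAAT boxes, at -87, -54 and -21, and CHR matches at -167 and 5, where a position is that of the first base of a match counted from the gene start. Cdk1 had CHR matches at -71 and -15, CCAAT boxes at -80 and -48 and, outside the stretch shown, at -208, and E2F motifs at -178 and -130. Of the 5 mitotic genes with a promoter in the table, 4 held both a CHR and a CCAAT box, and Mybl2 held none of the 3 motifs. Both motifs were found in 6.95% of all 32851 promoters, the CHR in 17.9% and the CCAAT box in 37.4%.

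For comparison the promoters of E2f7 and Rbl1 are shown, with E2F motifs and no CHR, at chr10:110745259-110745458 (plus strand) and chr2:157204515-157204714 (minus strand).
E2f7: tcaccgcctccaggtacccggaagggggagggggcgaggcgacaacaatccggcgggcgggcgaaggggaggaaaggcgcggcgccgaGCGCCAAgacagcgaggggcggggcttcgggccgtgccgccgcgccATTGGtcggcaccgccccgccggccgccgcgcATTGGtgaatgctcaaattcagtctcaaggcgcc
Rbl1: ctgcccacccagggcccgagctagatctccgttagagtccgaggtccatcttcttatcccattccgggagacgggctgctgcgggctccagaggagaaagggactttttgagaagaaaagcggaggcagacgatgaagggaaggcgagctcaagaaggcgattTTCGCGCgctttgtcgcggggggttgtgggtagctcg

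E2f7 held 2 further E2F motifs upstream of the printed stretch, at -223 and -198. An E2F motif was present in 4 of 6 E2F genes (E2f2, E2f3, E2f7 and E2f8), in 4 of 13 G1 regulators (Cdk2, Rbl1, Cdkn2a and Cdkn2c) and in 1 of 5 mitotic genes (Cdk1). Counted by promoter, these were 4 of 8, 4 of 17 and 1 of 5, against 9.57% of all promoters. No G1 regulator of 13 and no gene of 11 in the transcriptional group held both a CHR and a CCAAT box, whereas E2f2, E2f3 and E2f8 did. A match of letters is a description of the sequence and not a measured binding site.

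**Figure D2:**
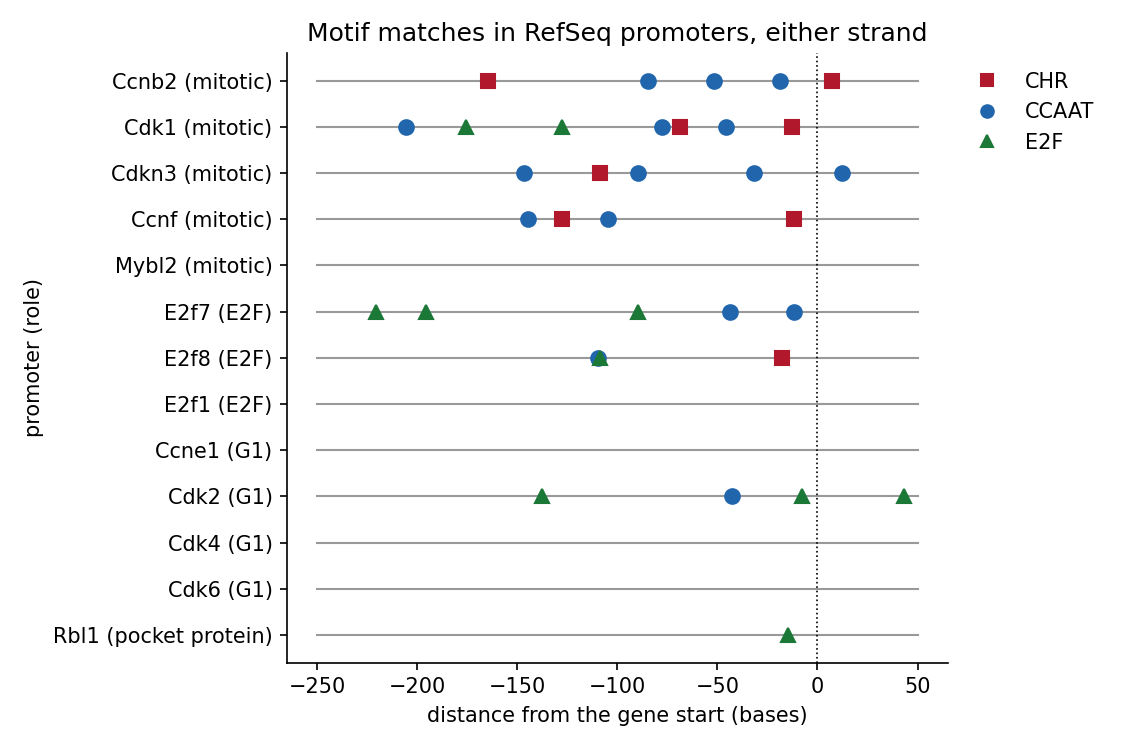
Motif matches by distance from the gene start in bases (x axis) for 13 genes (y axis, with the role of the gene), CHR as red squares, CCAAT as blue circles and E2F as green triangles, drawn at the middle of the match. The 4 upper mitotic promoters hold both CHR and CCAAT matches, whereas those of Mybl2, E2f1, Ccne1, Cdk4 and Cdk6 hold no match.

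None of the 8 E2F genes passed the rank product test. E2f7, an atypical E2F that represses E2F targets, came nearest. At 6 hours, 1, 3 and 7 days it had 5.26, 5.16, 5.63 and 6.65 in PNY lungs against 5.05, 5.27, 5.00 and 4.99 in SHAM lungs, a mean difference of 0.60 ± 0.77 with a permutation P of 0.00115. Its 7 day PNY array stood far above the other 7 arrays, and at 1 day PNY was the lower one. With the time point as a block, in which only arrays of the same time point are paired, E2f7 passed and 6 members rose in all. E2f8, the other atypical E2F, had 5.26, 5.78, 5.79 and 6.50 in PNY lungs against 5.84, 5.46, 5.26 and 5.67 in SHAM lungs. It was lower in PNY at 6 hours by 0.58 and higher at the other times, and its mean difference was 0.27 ± 0.60.

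E2f3, an activator E2F, had 6.43, 6.78, 6.93 and 7.09 in PNY lungs against 6.55, 6.26, 6.39 and 6.82 in SHAM lungs, with a mean difference of 0.30 ± 0.31. It was highest above SHAM at 1 and 3 days, by 0.52 and 0.54. E2f1, the activator E2F that Rb1 restrains, differed by 0.26 ± 0.15 at its brightest probe set and was higher in PNY there at all 4 times, without passing (permutation P = 0.0341). Its other probe sets had mean differences of 0.15 and -0.07, with -0.06 and -0.58 at 6 hours. The repressor E2Fs E2f4, E2f5 and E2f6 and the activator E2f2 had mean differences of 0.00 to 0.07. The ends of their single differences were those of E2f5, -0.46 at 6 hours and 0.48 at 7 days. E2f2 was nearly equal between the surgeries, with differences of 0.04, -0.03, 0.02 and -0.01.

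Of the 8 G1 cyclins and kinases, Ccne2 rose and 7 did not pass. Ccne2 had 4.89, 5.50, 5.72 and 6.39 in PNY lungs against 5.00, 4.98, 4.80 and 4.84 in SHAM lungs, a mean difference of 0.72 ± 0.70, or 1.65-fold (permutation P = 0.000113). PNY was lower at 6 hours by 0.11, and from 1 day on each PNY array lay above all SHAM arrays. Its relative Ccne1 had 6.09, 6.52, 6.62 and 6.76 in PNY lungs against 6.50, 6.19, 6.31 and 6.10 in SHAM lungs, a mean difference of 0.22 ± 0.45 without passing. At 6 hours the Ccne1 probe set was lower in PNY by 0.41, and a second, dimmer probe set was higher by 0.48, so no direction is given for that time. The brightest Ccne1 and Cdk4 probe sets are of a type whose probes can also match other transcripts.

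The D cyclins link growth signals to Cdk4 and Cdk6. At their brightest probe sets they were higher in PNY at every time point by small amounts, and none passed. Ccnd1 had 10.48, 10.63, 10.92 and 11.25 in PNY lungs against 10.30, 10.35, 10.74 and 10.98 in SHAM lungs, a mean difference of 0.23 ± 0.05. Its level was higher at later times in both surgeries, and the groups overlapped. The differences of Ccnd2 (0.15 ± 0.05) and Ccnd3 (0.21 ± 0.08) were of like size. Other Ccnd1 and Ccnd2 probe sets ran from -0.07 to 0.27 and from -0.12 to 0.10. The other Ccnd3 probe sets had mean differences of -0.14 and 0.09, the former with -0.16, 0.20, -0.18 and -0.40 over the times.

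Cdk6, the D cyclin kinase, had 9.14, 9.15, 9.11 and 9.27 in PNY lungs against 8.95, 9.03, 8.87 and 9.09 in SHAM lungs, a mean difference of 0.18 ± 0.05. It was the one member of 46 whose PNY and SHAM arrays did not overlap, a share near the 1.58% of all genes in which they did not. Without overlap, the exact permutation test over the 70 splits of the 8 arrays can only give p = 0.0286 (two-sided), its smallest value. It thus adds nothing to the lack of overlap, and the adjusted value over all probe sets was 1. The second Cdk6 probe set differed by -0.01. Cdk2 and Cdk4 differed by 0.14 ± 0.10 and 0.05 ± 0.08.

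No CDK inhibitor of 7 and no pocket protein of 3 passed the test between PNY and SHAM. The largest differences were those of Cdkn2a, Cdkn2c and Cdkn2b of the INK4 family, which bind Cdk4 and Cdk6. Cdkn2c (p18) had 8.62, 9.22, 9.48 and 9.88 in PNY lungs against 8.76, 9.00, 9.12 and 9.43 in SHAM lungs, a mean difference of 0.22 ± 0.26. Cdkn2b (p15) had 9.22, 9.44, 9.49 and 9.62 in PNY lungs against 9.03, 9.22, 9.35 and 9.46 in SHAM lungs, a mean difference of 0.17 ± 0.04. Both had higher levels at later times in either surgery, and in both the groups overlapped. Cdkn2a (p16 and p19), not above the median level, had 4.13, 3.92, 3.94 and 4.07 in PNY lungs against 4.17, 3.61, 3.69 and 3.68 in SHAM lungs, a mean difference of 0.23 ± 0.19. Its highest array of all 8 was that of SHAM at 6 hours. Of the CIP/KIP inhibitors, Cdkn1a (p21), Cdkn1b (p27) and Cdkn1c (p57) differed by -0.07, 0.03 and -0.03, and the sign of each turned when single arrays were left out. Leaving out a single array leaves the surgeries with unlike times. When both arrays of a time were left out, the signs of Cdkn1b and Cdkn1c turned in some cases, and that of Cdkn1a did not.

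Rbl1 (p107), the pocket protein that is itself an E2F target, had 7.46, 8.26, 8.62 and 8.86 in PNY lungs against 7.39, 8.08, 8.25 and 8.41 in SHAM lungs, a mean difference of 0.27 ± 0.17 without passing (permutation P = 0.0121). PNY was higher at each time, most at 7 days. Rb1 had 9.30, 9.31, 9.12 and 9.27 in PNY lungs against 9.09, 9.07, 8.96 and 9.37 in SHAM lungs, a mean difference of 0.13 ± 0.16, with PNY higher at all times but 7 days. Rbl2 (p130), the pocket protein of resting cells, had 9.51, 8.96, 9.12 and 9.22 in PNY lungs against 9.18, 9.13, 9.35 and 9.35 in SHAM lungs, a mean difference of -0.05 ± 0.26. Rbl2 was higher in PNY at 6 hours and lower at the 3 later times.

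The 13 transcriptional and other cyclins and CDKs, most of which act in RNA polymerase II transcription, had a median mean difference of 0.01, and none passed. Ccng2 (cyclin G2), a gene known from resting and arrested cells, had the largest one. It had 10.08, 9.96, 9.39 and 9.35 in PNY lungs against 10.10, 9.99, 9.87 and 9.84 in SHAM lungs, a mean difference of -0.26 ± 0.27 with a permutation P for lower of 0.0274. PNY was lower by 0.49 at both 3 and 7 days and by 0.02 and 0.03 before. A second Ccng2 probe set had a mean difference of -0.18 but another course, with 0.16, -0.31, -0.46 and -0.10. Cdk7 and Ccnh, subunits of the CDK-activating kinase, had the next largest. Cdk7 had 8.50, 8.15, 8.42 and 8.53 in PNY lungs against 8.25, 8.04, 8.38 and 8.35 in SHAM lungs and Ccnh had 8.67, 8.78, 8.94 and 8.91 in PNY lungs against 8.54, 8.57, 8.84 and 8.85 in SHAM lungs. Their differences of 0.15 ± 0.09 and 0.12 ± 0.06 at these probe sets were positive at all 4 times, with overlapping groups. Other Cdk7 probe sets had mean differences of -0.16 to 0.04. Those of Ccnh had 0.13 and 0.21, with single differences down to -0.26. The other 10 genes ran from -0.09 to 0.09.

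**Figure D3:**
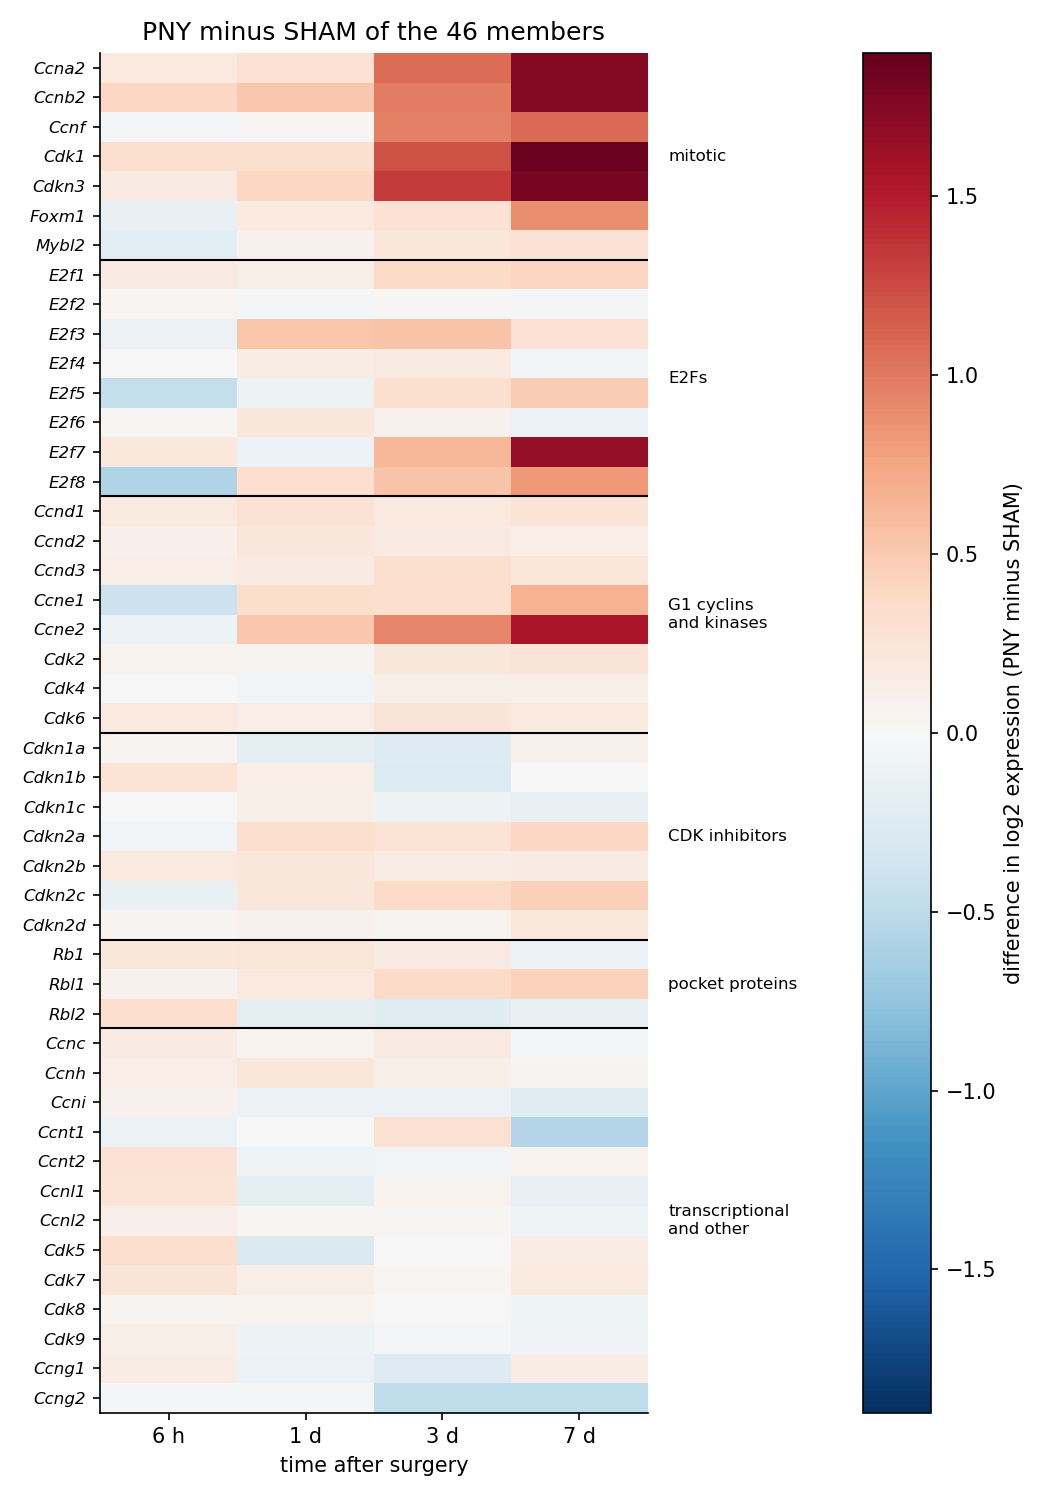
Difference in log2 expression (PNY minus SHAM, colour, red for higher in PNY) of the 46 genes in rows, grouped by role, at 6 hours, 1, 3 and 7 days in columns, each cell 1 pair of arrays. Cdk1, Cdkn3, Ccna2, Ccnb2, E2f7 and Ccne2 hold the strongest red cells, at 7 days, and the transcriptional group stays pale but for Ccng2 and Ccnt1.

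Set by time point, with 1 array per surgery and hence no test, no member differed by 1.5-fold at 6 hours or at 1 day. At 3 days 7 were higher by at least 1.5-fold (Cdkn3, Cdk1, Ccna2, Ccnb2, Ccnf, Ccne2 and E2f7), and at 7 days these and Foxm1, E2f8 and Ccne1, 10 in all. None was lower by that fold at any time. Of all genes 0.682%, 1.88%, 1.14% and 1.98% were higher by 1.5-fold at 6 hours, 1, 3 and 7 days, and 1.04%, 1.09%, 0.511% and 1.48% were lower. At 1 day all 10 thymocyte markers were higher in PNY by that fold, while no member was.

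The 7 mitotic genes and the 18 G1 regulators (G1 cyclins and kinases, CDK inhibitors and pocket proteins) had different medians at 3 and 7 days, given here as a description with no test. The median difference of the mitotic genes was 0.16, 0.29, 0.97 and 1.74 at 6 hours, 1, 3 and 7 days, and that of the G1 regulators 0.07, 0.18, 0.17 and 0.19. Over all genes the medians at these times lay between 0.00 and 0.02. The median of the mean differences was 0.82 for the mitotic genes and 0.16 for the G1 regulators, against 0.01 for all genes. Without the PNY array of 7 days these medians were 0.44 and 0.089, and without that of 1 day 1.03 and 0.18. With the probe sets of a gene averaged they were 0.80 and 0.076. Within the G1 regulators Ccne2 had a course like that of the mitotic genes, with differences of -0.11, 0.52, 0.92 and 1.55. The SD over all probe sets of the difference at a time point was 0.22 to 0.28.

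**Figure D4:**
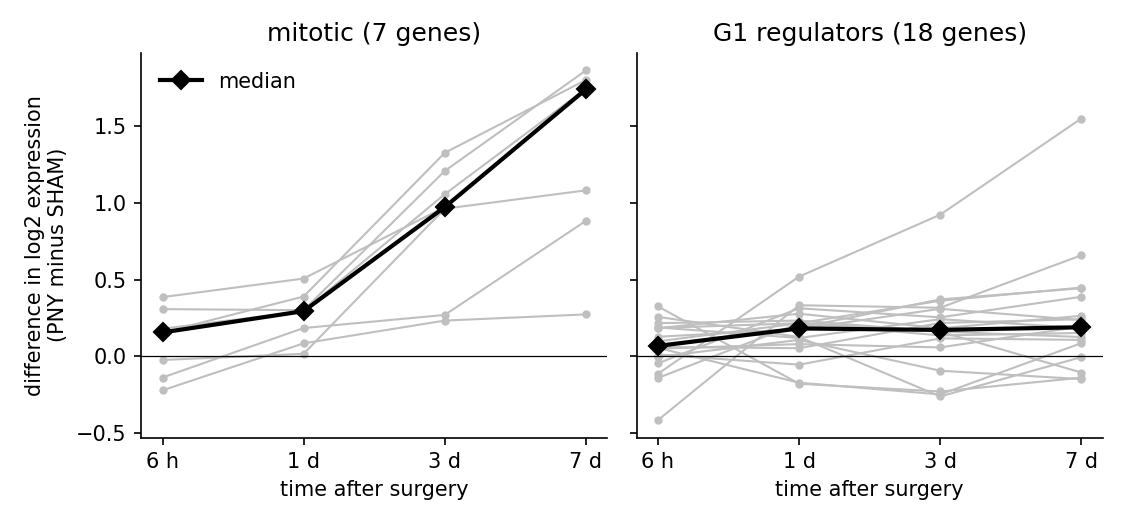
Difference in log2 expression (PNY minus SHAM, y axis) by time after surgery (x axis) for the 7 mitotic genes (left) and the 18 G1 regulators (right), each grey line a gene and the black line the median. The mitotic median reached 1.74 at 7 days and the G1 median 0.19, and on the right Ccne2, at 1.55, and Ccne1, at 0.66, end highest at 7 days.

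Both late PNY arrays, of 3 and 7 days, lay above all 4 SHAM arrays in 21 of the 46 genes, a pattern found in 10.2% of all genes. By role these were 7 of 7 mitotic genes, 6 of 8 G1 cyclins and kinases, 3 of 8 E2Fs, 2 of 7 CDK inhibitors, 1 of 3 pocket proteins and 2 of 13 transcriptional and other genes. PNY was higher in 33, 33, 36 and 31 members at 6 hours, 1, 3 and 7 days, against 53.2%, 53.6%, 52.7% and 49.6% of all genes, and on average in 37, against 52.9%. At the brightest probe sets PNY was higher at all 4 time points in 15 members, against 9.36% of all genes. Other probe sets of several of these, among them Ccnd1, Ccnd3, E2f1, Ccnh and Cdk7, were lower in PNY at some time. These were 4 mitotic genes (Ccna2, Ccnb2, Cdk1 and Cdkn3), 5 G1 cyclins and kinases (Ccnd1, Ccnd2, Ccnd3, Cdk2 and Cdk6), Cdkn2b, Cdkn2d, Rbl1, E2f1, Ccnh and Cdk7. Ccng2 was the one member lower at all 4, though its second probe set was higher at 6 hours.

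By limma no member passed between PNY and SHAM at an adjusted p under 0.05, nor did any of the 45037 probe sets. At an unadjusted p under 0.05, 902 probe sets (2%) passed, and 5 members were higher (Cdk1, Ccna2, Cdkn3, Ccnf and Ccne2) and none lower, against 1.28% and 0.89% of all genes. With the time point as a block, limma still called none at the adjusted threshold, 2484 probe sets (5.52%) passed unadjusted, and 14 members were higher and none lower, against 3.8% and 2.1% of all genes.

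Whether the effect of pneumonectomy differed between the later (3 and 7 days) and the earlier times (6 hours and 1 day) was tested by limma as an interaction. No member and no probe set passed at an adjusted p under 0.05, with 2 arrays per surgery and period. At an unadjusted p under 0.05 1246 probe sets (2.77%) passed, and 7 members were higher later and 1 lower, against 1.78% and 0.682% of all genes. The later minus earlier coefficient was 1.29 ± 0.41 (SE) for Cdkn3, 1.23 ± 0.36 for Cdk1, 1.16 ± 0.36 for Ccna2 and 1.02 ± 0.30 for Ccnf, all with an adjusted p of 1. E2f7, Ccne2 and E2f5 were the other 3 of the 7. At its brightest probe set E2f5 had differences of -0.46, -0.09, 0.31 and 0.48 over the times. Its other probe sets did not have this course, with 0.12, -0.18, -0.10 and 0.13 in one and 0.09, 0.03, 0.07 and 0.05 in the other. Ccng2 was the 1 lower, at -0.46 ± 0.18 for its brightest probe set.

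The rank product calls depended on the late arrays, and the sizes of the differences most on the PNY array of 7 days. Without that array none of the 5 passed, and their mean differences were 0.44 to 0.51 (0.51 for Cdk1, against 0.92 with it). Without the PNY array of 3 days Ccnb2 alone passed, although the 5 differences were still 0.69 to 0.81 (0.80 for Cdk1). Without both arrays of 3 days or both of 7 days, Ccnb2 again passed alone, with Cdk1 at 0.82 and 0.61. Without the PNY array of 1 day, or of 6 hours, 7 members passed, the 5 with Ccnf and E2f7. With a percentage of false positives under 0.05 in place of the P, Ccna2 and Ccne2 did not pass and 3 did. The summed erythroid markers were lower in PNY (499.7 to 730) than in SHAM lungs (717 to 1083) on the linear scale, overlapping in range. Gene by gene they did not move together: their median mean difference was 0.006, and 3 of 6 were higher in PNY on average. Of 6 erythroid markers measured, Alas2 fell and none rose, of 10 thymocyte markers Rag1 rose, though not without the PNY array of 1 day, and of 5 myeloid and 4 B cell markers none passed. Their part in these results was not tested.

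Time after surgery of either kind was compared next, as 6 hours against the mean of 1, 3 and 7 days with the surgery as a covariate, by limma with Benjamini-Hochberg adjustment over all probe sets. With no lung from before surgery, it cannot be said which of the times differs from rest. Here 7 members passed, 2 higher and 5 lower at 6 hours. Of all genes 3.16% were higher and 7.01% lower, so the shares among the 46 are not far from these. Unadjusted, 3 were higher and 11 lower at p under 0.05, where 9.51% and 17.2% of all genes were. Both arrays of 6 hours lay outside the range of all later arrays in 16 members, and in 29.7% of all genes.

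Cdkn1a (p21), a CIP/KIP inhibitor and p53 target, was highest at 6 hours. It had 12.15, 10.70, 10.39 and 10.52 in PNY lungs against 12.09, 10.88, 10.64 and 10.44 in SHAM lungs at 6 hours, 1, 3 and 7 days. The 6 hour arrays were higher by 1.52 ± 0.13 (SE), a 2.87-fold change (adjusted p = 0.00101), and the PNY and SHAM arrays of that time differed by 0.06. A second Cdkn1a probe set was higher by 1.37 (adjusted p = 0.00915). Cdkn2d (p19), of the INK4 family, had 9.64, 9.05, 9.14 and 9.39 in PNY lungs against 9.59, 8.97, 9.08 and 9.20 in SHAM lungs. It was higher at 6 hours by 0.47 ± 0.12 (adjusted p = 0.0397), and its lowest arrays in either surgery were those of 1 day.

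The 5 members lower at 6 hours were Rbl1, E2f1, Ccnd2, Ccnd3 and Cdk4. Rbl1, whose array values are given above, was lower by 0.99 ± 0.16 (adjusted p = 0.0082), and its 6 hour arrays lay below all later ones. E2f1 had 6.86, 7.25, 7.53 and 7.56 in PNY lungs against 6.70, 7.15, 7.16 and 7.16 in SHAM lungs, a coefficient of -0.52 ± 0.11 (adjusted p = 0.0211). Ccnd2 had 10.29, 10.87, 10.76 and 10.71 in PNY lungs against 10.19, 10.65, 10.60 and 10.58 in SHAM lungs, a coefficient of -0.45 ± 0.09 (adjusted p = 0.0183). In both, the 6 hour arrays lay below all 6 later arrays.

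Ccnd3 had 10.03, 10.44, 10.72 and 10.78 in PNY lungs against 9.91, 10.26, 10.41 and 10.54 in SHAM lungs, a coefficient of -0.56 ± 0.12 (adjusted p = 0.0264). Cdk4 had 9.19, 9.51, 9.72 and 9.77 in PNY lungs against 9.18, 9.56, 9.60 and 9.66 in SHAM lungs, a coefficient of -0.45 ± 0.10 (adjusted p = 0.0276). Both partners thus had their lowest values at 6 hours and their highest at 7 days in either surgery. The remaining Cdk4 probe sets and 2 of the Ccnd2 probe sets were also lower at the adjusted threshold, whereas the other Rbl1, E2f1 and Ccnd3 probe sets did not pass. Both other Ccnd3 probe sets had coefficients of the opposite sign (0.33 and 0.11), and those of Rbl1 ran from -0.21 to 0.19. With the probe sets of a gene averaged the coefficient was -0.04 for Ccnd3 and -0.26 for Rbl1, so these calls depend on the probe set. No mitotic gene passed in this comparison, in which their coefficients were -0.69 to 0.04.

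**Figure D5:**
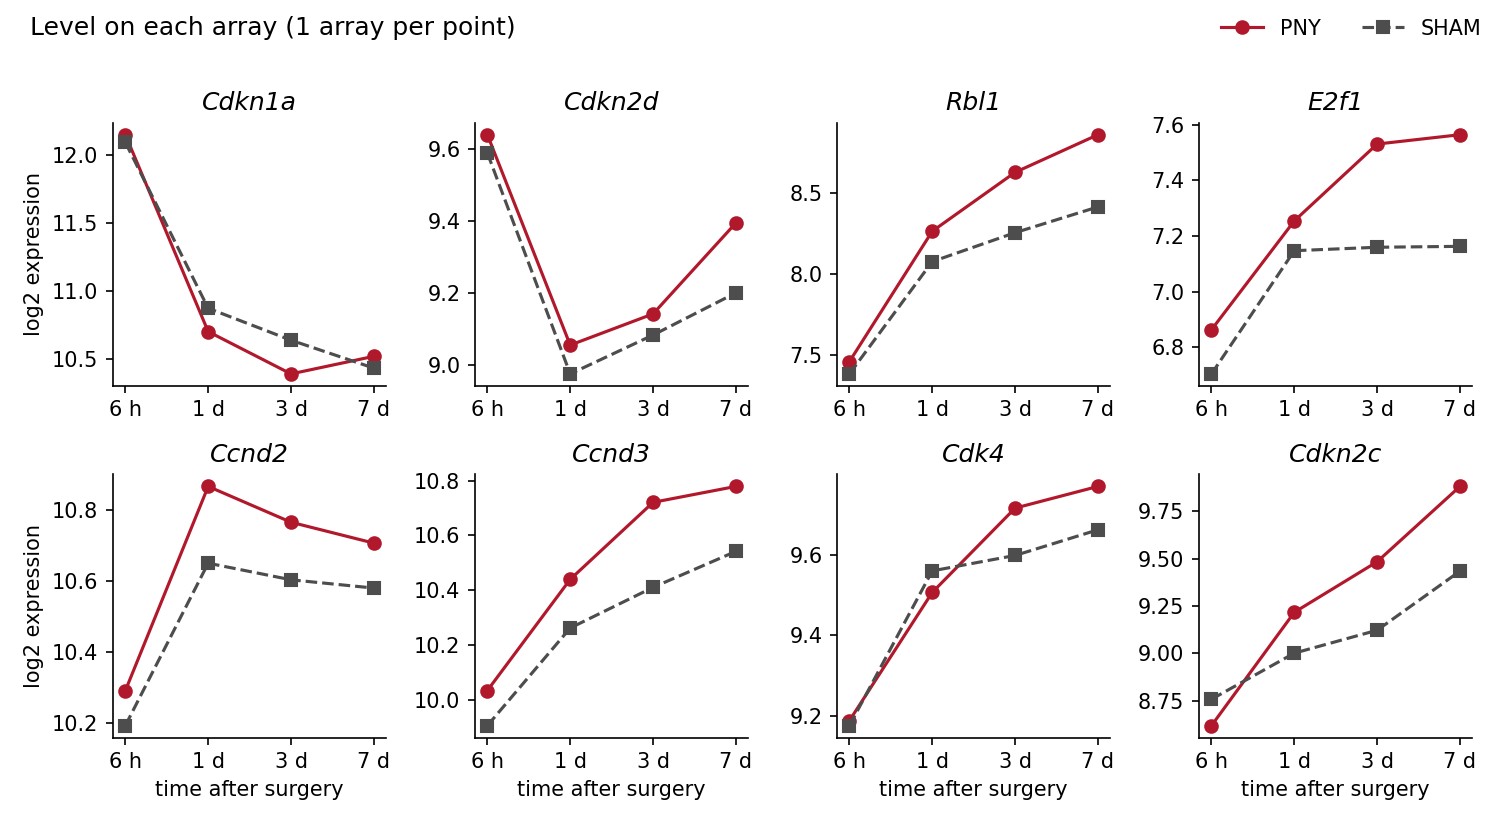
Log2 expression (y axis, scaled per gene) by time after surgery (x axis) for the 7 members that passed between 6 hours and later, and Cdkn2c, which did not. Each point is 1 array of 8 pooled mice, PNY as red circles and SHAM as grey squares; at 6 hours Cdkn1a lies at 12.15 in PNY and 12.09 in SHAM, against 10.39 to 10.88 later.

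Of these 7 calls, that of Cdkn1a held under all 17 alternatives that could be fitted. Without the PNY or the SHAM array of 6 hours, which leaves 1 array at that time, Cdkn1a alone passed. Without the PNY array of 1 day, on which the thymocyte markers were high, 6 members passed and Cdkn2d did not (coefficient 0.44, adjusted p = 0.0551). Without the PNY array of 3 days 3 members passed, without the SHAM array of 7 days 4, without both arrays of 3 days 2 and without both of 7 days 3. With all probe sets of a gene averaged, 7 members passed, of which 3 were shared (Cdkn1a, Cdkn2d and Cdk4). Markers of other cells moved with this comparison, in which 3.16% of all genes were higher at 6 hours and 7.01% lower. Of the 10 lung markers 2 were lower at 6 hours and none higher, Tek, an endothelial receptor, by 0.45 (adjusted p = 0.0363) and Col1a1, the fibroblast collagen, by 0.50 (adjusted p = 0.0368). Of 4 B cell markers 3 were lower, and their summed linear level was 840 in PNY and 1017 in SHAM lungs at 6 hours against 1419 to 2523 on the later arrays. Their part in these calls was not tested.

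The other genes of the pathway were read from written lists. Of 20 genes of the mitotic machinery 12 rose by rank products and none fell, where 0.506% of all genes rose and 0.0605% fell. Their median mean difference was 0.60 against 0.01 over all genes. The largest were those of Ttk, a spindle checkpoint kinase (1.04), Birc5, survivin (0.96) and Top2a, a topoisomerase (0.92). These 12 and 2 more rose without the PNY array of 1 day, Nek2 and Cenpa, and the median was 0.80. Of 19 replication genes 2 rose, Rrm2 (0.82), a ribonucleotide reductase subunit, and Tk1 (0.68), thymidine kinase, while the replication licensing factor Cdc6 (0.50) did not pass, and the median was 0.29. Without that array the same 2 rose. Of 7 MuvB and E2F partner genes none passed, with a median of 0.05 and the E2F partner Tfdp1 (0.26), Lin54 (0.15) and Lin52 (0.14) as the largest.

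Of 9 p53 targets and regulators none passed between PNY and SHAM, with a median of -0.05, and the largest differences were those of Bbc3 (-0.18), Trp53inp1 (-0.17) and Phlda3 (0.17). Between 6 hours and later 3.16% of all genes were higher and 7.01% lower. Of these 9 p53 targets and regulators, 4 were higher, Trp53inp1 by 1.34, Sesn1 by 0.87, Sesn2 by 0.87 and Gadd45a by 0.66, and Phlda3 was lower by 0.40. These calls are of the same limma fit as that of Cdkn1a (adjusted p of 0.00258, 0.00363, 0.0228, 0.00632 and 0.0465 in the order named). Of the mitotic machinery none was higher and 1 lower, and of the replication genes none was higher and 4 lower, Mcm5 by 1.12 among them. All 5 calls of the p53 list held without the PNY array of 1 day. Leaving it out added Bub1 to the mitotic machinery genes that were lower, and among the replication genes 3 of the 4 calls held, that of Rrm2 was lost, and Mcm6 and Tk1 were added.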

How the data were processed

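RNA of 8 lung tissue pools, 4 PNY and 4 SHAM, was hybridised to 1 Affymetrix array each. The deposited log2 values were made by the authors with RMA (version not given in the sources used here). Genes were named from probe sets with 1 symbol (34945). Control probe sets (64) were left out, 45037 were tested, and no filter on low values was set.

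Rank products followed the study's design, with the 4 time points as replicates and 1000 permutations (100 for the alternatives), written in Python (3.11.15, with pandas 2.3.3 and numpy 2.4.6). Limma 3.58.1 was run in R 4.3.3, with Benjamini-Hochberg adjustment over all probe sets, and figures were drawn with matplotlib 3.10.9. Both tests were checked on simulated data. Single genes were tested by an exact permutation test over 70 splits.

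Same-time PNY and SHAM arrays deviated together from their group means (r of 0.60, 0.36, 0.30 and 0.30 at 6 hours, 1, 3 and 7 days over all probe sets), though PNY of 7 days with SHAM of 3 days gave 0.34. The shared time point, from the labels, was therefore also used as a block.

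Values on every array are given for members past a test and for the 3 with the largest mean difference in each role, others by range. Members and lists were chosen with earlier results of these data known, and the count of late PNY arrays above all SHAM arrays after their values were seen. Ccnf, Foxm1, Mybl2, E2f2 and Cdk6 were described beyond the rule. Promoters came from RefSeq. P-values of limma and of the exact test measure the spread between pools taken at different times only. The rank product P comes from values shuffled within each array and measures no such spread.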

Additional observations from a re-analysis of the deposited data

Results flagged for a closer look

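Of 92 groups of 4 arrays (46 genes in PNY and in SHAM), 7 held an array whose gap to its nearest neighbour took more of the range of the group than Dixon's critical value for 4 samples allows, and chance gives such a gap in about 1 in 20 groups. The 4 times of a group are not replicates of 1 time, so a gap can lie between times. In PNY lungs Cdk2 was high at 7 days, at 8.21 against 7.86 to 7.90 on the other PNY arrays. Cdk9, the kinase of transcription elongation, was high in PNY at 6 hours, at 10.03 against 9.80 on each of the others. Cdkn1c was high in PNY at 1 day, at 9.30 against 8.90 to 8.96, on the array with the high thymocyte markers, and its SHAM array of 1 day was the highest of its group too, at 9.19.

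In SHAM lungs 3 of the flagged arrays were those of 6 hours. Ccnd2 was low there, at 10.19 against 10.58 to 10.65, E2f1 was low, at 6.70 against 7.15 to 7.16, and Cdkn2a was high, at 4.17 against 3.61 to 3.69. For Ccnd2 and E2f1 the PNY array of 6 hours was also the lowest of its group. Ccnf was low in SHAM at 3 days, at 5.88 against 6.32 to 6.37, and without that array the gene did not pass the rank product test either. No difference between the later and the earlier time points passed its test among the members.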

How the results depend on the processing

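Of the single-gene values under the alternatives, 856 kept their direction and their side of the threshold, 56 no longer passed, 12 passed newly (Ccnf and E2f7) and 63 changed sign. For 6 hours against later only the 7 called genes were followed, so these counts hold no new calls of that comparison. There E2f2, Cdkn2c, Ccnc, Cdkn2b, Ccng2, Ccnh and Ccnd1 each passed newly under some alternative. With limma's trended and robust variance setting 9 passed, E2f2 and Cdkn2c being new. With 1 array left out the surgeries hold unlike times, so a change of level with time enters the difference. The changes of sign were in 17 genes that had not passed, with reported differences between -0.09 and 0.10. When arrays were left out their differences ran over these ranges: Ccng1 -0.071 to 0.058, Ccnl1 -0.093 to 0.075, Ccnl2 -0.011 to 0.048, Ccnt1 -0.22 to 0.068, Ccnt2 -0.025 to 0.096, Cdk4 -0.062 to 0.17, Cdk5 -0.084 to 0.15, Cdk8 -0.031 to 0.040, Cdk9 -0.076 to 0.0075, Cdkn1a -0.47 to 0.29, Cdkn1b -0.084 to 0.14, Cdkn1c -0.13 to 0.011, Cdkn2d -0.015 to 0.22, E2f2 -0.098 to 0.091, E2f5 -0.080 to 0.23, E2f6 -0.0089 to 0.12 and Rbl2 -0.18 to 0.026. With the probe sets averaged Cdkn1a was at 0.067, Cdkn1b at -0.055 and Ccnl2 at -0.0060, and after a further quantile normalization Ccnl2 was at -0.0026, Cdk8 at -0.014 and E2f2 at -0.016. The rank product count of 5 members was 3 with probe sets above the median level only, where Cdkn3 and Ccne2 were not among those tested, and 3 with a percentage of false positives under 0.05. It was 6 with the time point as a replicate block, which added E2f7 and changed no other call, and 0 to 7 when an array or a time point was left out. The count between 6 hours and later, 7, was 11 with probe sets above the median level only, where fewer probe sets were adjusted for, and 1 to 8 when arrays were left out; leaving out both arrays of 6 hours gives no such comparison. Limma counts for PNY against SHAM and for later against earlier were 0 throughout, so they say nothing of stability. Members higher by 2-fold at 3 days were 3, against 7 by 1.5-fold. The median of the mitotic genes was 0.436 to 1.07 and that of the G1 regulators 0.0888 to 0.194 when arrays were left out, and with the mean of the probe sets the G1 median was 0.0759, against 0.16; the cause was not tested. Centring each array moved no count. RNA of 8 mice on 1 array per time leaves single times without replicate error, and 6 members lie at or below the median level.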
